A study of Mus musculus with 6 samples.

Results

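The genes described here encode enzymes of fatty acid beta-oxidation, together with a few proteins that supply substrate to it or divide the organelle in which part of it runs. They were chosen by symbol, as 36 named genes among the 24532 genes of the deposited table, and all 36 were found. From textbook localisation, 17 were classed as mitochondrial, 11 as peroxisomal and 3 as present in both organelles, and the 5 long-chain acyl-CoA synthetases, which sit on several membranes, were kept apart. RNA came from whole gastrocnemius, the large calf muscle, of 12-week-old C57BL/6 mice. All 6 samples carried USP21 flox/flox alleles. The 3 controls had these alleles alone and are labelled Litter, and the 3 knockouts also had Ckmm-Cre, in which the promoter of muscle creatine kinase drives the recombinase. Cells of the muscle that do not use this promoter should keep Usp21, a gene for an enzyme that removes ubiquitin from proteins. The design compares RNA levels with and without Usp21 in muscle fibres, and log2 fold changes are knockout minus control. A change in the share of a cell or fibre type and a change in RNA per cell cannot be told apart in such samples.

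Beta-oxidation shortens an activated fatty acid by repeated rounds of oxidation, hydration, a further oxidation and cleavage of a carbon pair as acetyl-CoA. In mitochondria the first step is taken by acyl-CoA dehydrogenases, which pass electrons through the electron transfer flavoprotein to the respiratory chain. In peroxisomes an oxidase takes that step and makes hydrogen peroxide, and the pathway handles very long, branched and dicarboxylic acids. Muscle draws on mitochondrial beta-oxidation at rest and in long exercise, and slow and oxidative fibres hold more of its enzymes than fast glycolytic fibres.

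Total counts per library ran from 48658436 to 67332846, and 14109 genes were tested with edgeR's quasi-likelihood test, with p adjusted over all of them. CPM are counts scaled to library size with TMM factors, given in the order of replicates 1, 2 and 3 of each group, and FPKM, which are also scaled to gene length, are the authors' deposited values. Usp21 stood at 19.3, 19.3 and 19.2 CPM among controls, against 9.08, 7.19 and 7.47 CPM among knockouts (log2 fold change -1.28), lower in every knockout. Fibre genes of fast muscle were abundant in all libraries, with Myh4 at 46929 CPM and Ckm at 27999.9 CPM in controls. Myh1, another fast myosin, varied more, at 5063, 7230 and 1952 CPM among controls, against 5084, 4429 and 7172 CPM among knockouts. Of the 7 muscle fibre markers 4 were highest in control 3, and 1, Myh1, was lowest there. Markers listed for slow fibres set 1 library apart. Their summed level was 5917, 6123 and 1371 CPM among controls, against 4351, 2963 and 6469 CPM among knockouts. Myh2, the myosin of fast oxidative fibres, is on this list and made up most of each sum. It stood at 4460, 4711 and 1193 CPM among controls, against 3243, 2182 and 4697 CPM among knockouts. Myh7, the slow myosin, stood at 293, 268 and 6.63 CPM among controls, against 235, 180 and 416 CPM among knockouts. Of the listed markers 10 of 10 were lowest in control 3. Fold changes without control 3 are therefore given beside members that stood apart in it. Of 3 brown adipocyte markers, Cidea stood at 0.439, 0.679 and 0.0605 CPM among controls, against 1.7, 2.16 and 0.785 CPM among knockouts, and Ucp1 and Elovl3 were at 0 counts in every library, which allows up to 0.0454 to 0.0598 CPM. Summed markers stood at 224 to 353 CPM among controls, against 251 to 508 CPM among knockouts, for adipocytes and 74.3 to 129.5 CPM among controls, against 73.4 to 119 CPM among knockouts, for macrophages. They stood at 1429 to 2229 CPM among controls, against 2181 to 2607 CPM among knockouts, for fibroblasts and 255 to 316 CPM among controls, against 261 to 285 CPM among knockouts, for endothelium.

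No beta-oxidation gene passed the test. Of the 36 members 35 had enough counts to be tested, and 0 had an edgeR adjusted p under 0.05, against 0.0567% of all genes tested (0.0354% higher and 0.0213% lower). At an unadjusted p under 0.05 there was 1 member (Acaa1a, lower), against 11.6% of all genes (6.56% higher and 5.07% lower). DESeq2's Wald test and limma-voom also called 0 members, with 2 and 1 at an unadjusted p under 0.05. The groups did not overlap for 3 of 35 members, against 17.3% of all genes (8.38% higher and 8.87% lower). Acad9 was the higher one and Acaa1a and Hsd17b10 the lower ones. The members' shares are no larger than those of all genes. Fold changes were positive for 23 and negative for 12 members, with a median log2 fold change of 0.047; over all genes 49.3% were positive and the median was -0.0037. This split was not stable. It was 15 of 35 positive on the log2 FPKM scale, 16 of 36 without knockout 3 and 10 of 35 without control 3. On log2 FPKM plus 1 the median over all genes was lower as well, at -0.047, against -0.014 over members. Leaving out some single library turned the sign of 20 of the 35 members and moved the log2 fold change of 32 by over 1.5 times, all but Hsd17b10, Acaa1a and Acox3. Control 3 turned the most signs, 13.

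Most of the intervals around these fold changes were narrow. The 95% interval, not adjusted for the number of genes, lay within a 1.5-fold change in either direction for 28 of 35 members and within a 2-fold change for 34. Acsl3 was the 1 member whose interval reached past 2-fold, at -1.18 to 0.067 on the log2 scale. The other 6 that reached past 1.5-fold were Acadl, Acadvl, Acaa2, Etfdh, Echs1 and Decr2. Zero lay inside the interval of every tested member but Acaa1a.

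**Figure D1:**
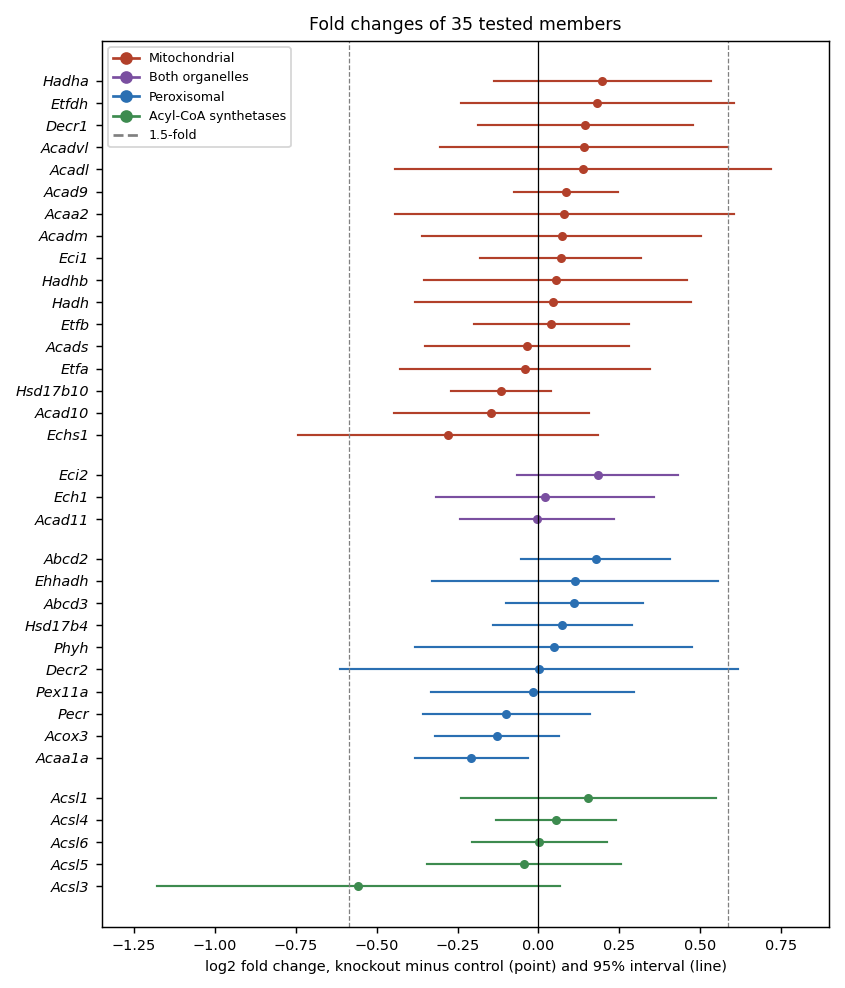
Log2 fold change (knockout minus control, x axis) of the 35 tested members, with the 95% interval as a line; colours give the compartment class and dashed lines mark a 1.5-fold change. Points run from -0.56 (Acsl3) to 0.20 (Hadha), and of the intervals only that of Acaa1a leaves out 0.

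Levels compared per length placed the mitochondrial enzymes well above most peroxisomal ones. The 6 members with the highest mean FPKM in controls were Hadhb (207 ± 50.2; SD, n = 3), Ech1 (184 ± 39.3), Acadm (171 ± 43.5), Acadl (158 ± 54.1), Etfb (155 ± 20.7) and Acadvl (146 ± 37.9). Neighbours in this order differed by less than their SD. Phyh, at 145 ± 35.1 FPKM, was the peroxisomal member that came next, while the other 10 peroxisomal members lay between 0.519 (Acaa1b) and 26.6 FPKM (Acaa1a). Among mitochondrial members Acad9 (9.85 ± 0.0623 FPKM) and Acad10 (2.05 ± 0.124 FPKM) were the lowest. All members together took 0.348% to 0.495% of the scaled counts of a library.

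**Figure D2:**
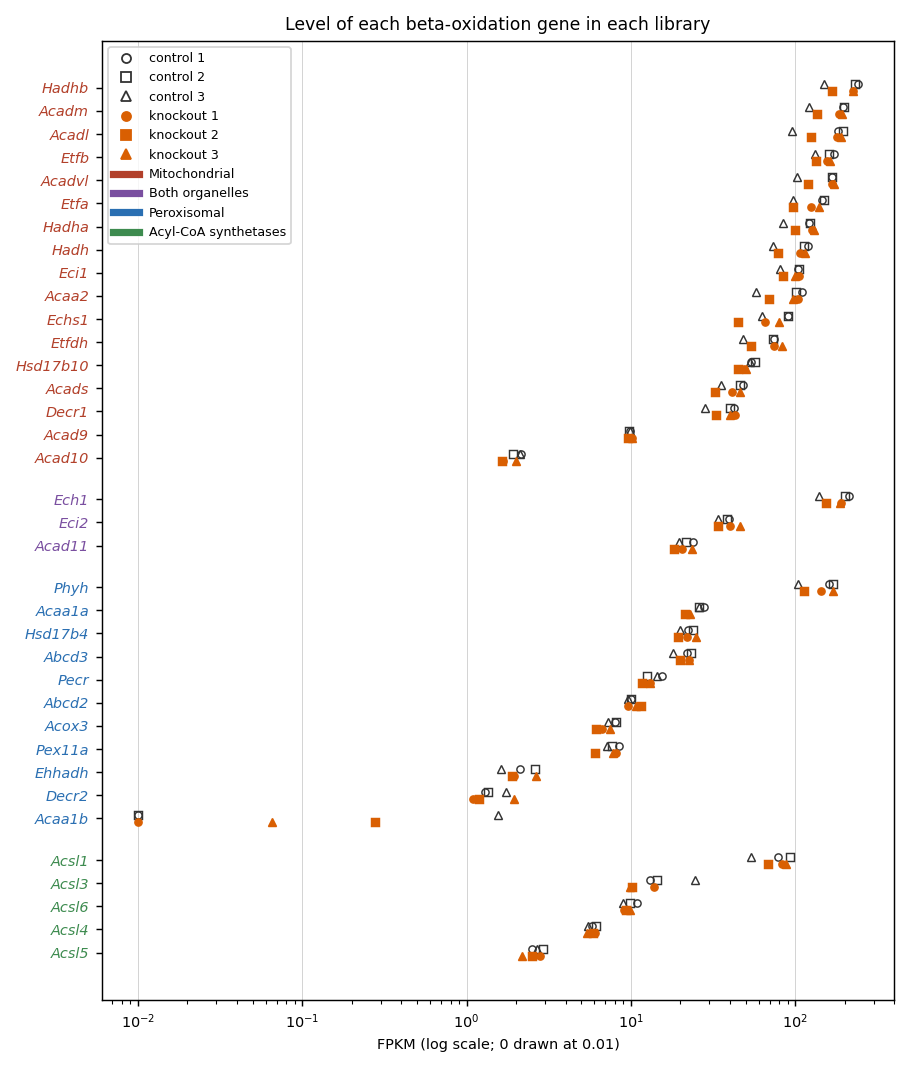
Deposited FPKM (x axis, log scale, 0 drawn at 0.01) of each of the 36 members in each of the 6 libraries; open symbols are controls, filled symbols knockouts, and gene names are coloured by class. Hadhb stands highest at 207 FPKM in controls, and the open triangles of control 3 stand to the left of the other controls for most mitochondrial members.

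Activation by the long-chain acyl-CoA synthetases comes first, since a fatty acid must be joined to coenzyme A before it is oxidised. Acsl1, the main isoform of muscle, stood at 302, 347 and 218 CPM among controls, against 329, 289 and 346 CPM among knockouts. Its log2 fold change was 0.15 (SE 0.17, adjusted p = 0.761), against -0.014 without control 3, and the groups overlapped. It made up 67.1% ± 9.27 of the summed Acsl FPKM in controls and 73.2% ± 2.62 in knockouts (SD, n = 3 each), with the low value of 56.5% in control 3. Acsl3, an isoform linked to lipid droplets, stood at 49.6, 52.9 and 97.8 CPM among controls, against 54.5, 42.4 and 39.3 CPM among knockouts. Control 3 alone was high, at 191% of the mean of the other controls, and the remaining 5 libraries lay between 39.3 and 54.5 CPM. The log2 fold change of Acsl3 was -0.56 (SE 0.27, adjusted p = 0.475) with all libraries and -0.18 without control 3. Acsl4, which prefers arachidonic acid, Acsl5 and Acsl6 had log2 fold changes of 0.055, -0.045 and 0.0032. Acsl6 was at a control mean of 25.4 ± 2.13 CPM and a knockout mean of 25.4 ± 1.15 CPM. The exons of Acsl3 overlap those of Utp14b on the same strand over 5.6% of their length, and Utp14b averaged 1.06 CPM in controls.

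The acyl-CoA dehydrogenases take the first oxidative step, each on its own range of chain lengths. Acadvl, for very long chains, stood at 362, 349 and 231 CPM among controls, against 373, 285 and 380.3 CPM among knockouts. Acadl, for long chains, stood at 349, 362 and 192 CPM among controls, against 354, 262 and 378 CPM among knockouts. Acadm, for medium chains, stood at 398, 386 and 258 CPM among controls, against 387, 305 and 404 CPM among knockouts. In all of these, control 3 was the lowest library and knockout 2 the next, and the groups overlapped. Their log2 fold changes were 0.14 (interval -0.30 to 0.59), 0.14 (-0.44 to 0.72) and 0.073 (-0.36 to 0.50), with adjusted p of 0.815, 0.87 and 0.913. Without control 3 they were -0.039, -0.10 and -0.10. Acads, for short chains, was at a control mean of 79.7 ± 10.2 CPM and a knockout mean of 77.8 ± 10.9 CPM (-0.036; -0.13 without control 3). In GENCODE M21, exons of Acadvl overlap those of Dvl2 on the opposite strand over 42.9% of their length. The RefSeq spans do not overlap, with Dvl2 at chr11:70000592-70010109 and Acadvl at chr11:70010183-70015428. Dvl2 averaged 8.4 CPM in controls, far under Acadvl, but the counting may not have used strand.

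Acad9 is known mainly as an assembly factor of respiratory complex I. It stood at 38.2, 36.5 and 39.8 CPM among controls, against 40.4, 40.5 and 40.6 CPM among knockouts. In CPM every knockout was above every control, by a small margin: the log2 fold change was 0.086 (SE 0.069, adjusted p = 0.67), with an exact two-sided permutation p of 0.1, which is as low as groups of 3 can reach. In FPKM the groups overlapped, at 9.91, 9.79 and 9.84 among controls, against 10.1, 9.54 and 10.2 among knockouts. The log2 fold change of Acad9 was 0.014 on log2 FPKM plus 1, where the median over all genes was -0.047. Acad10, a mitochondrial family member of less settled function, stood at 7.6, 6.59 and 7.93 CPM among controls, against 6.17, 6.44 and 7.39 CPM among knockouts (log2 fold change -0.15, SE 0.13, adjusted p = 0.699; -0.089 without control 3), and its groups overlapped. Acad11, found in peroxisomes and mitochondria, was at a control mean of 72 ± 5.77 CPM and a knockout mean of 71.8 ± 7.32 CPM (-0.0042).

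Within mitochondria the later steps are carried out by separate soluble enzymes and by the trifunctional protein of the inner membrane. Hadha, its alpha subunit with hydratase and dehydrogenase activity, stood at 456, 448 and 334 CPM among controls, against 496, 413 and 509 CPM among knockouts (log2 fold change 0.20, SE 0.14, adjusted p = 0.638; 0.066 without control 3). Hadhb, its beta subunit with thiolase activity, stood at 487, 448 and 316 CPM among controls, against 465, 368 and 464 CPM among knockouts (log2 fold change 0.054, SE 0.17, adjusted p = 0.932; -0.11 without control 3). Both were lowest in control 3. The genes lie head to head on chromosome 5 of mm10, Hadha at chr5:30119423-30154980 and Hadhb at chr5:30155253-30184593, with 273 bases between their RefSeq starts, so they are read outward from a shared stretch. The RefSeq (GRCm38.p6) window of Hadhb, from 250 bases before its start to 50 bases from it (chr5:30155003-30155302, plus strand), is shown because the 228 bases in capitals also lie in the same kind of window of Hadha, on the other strand.
Hadhb: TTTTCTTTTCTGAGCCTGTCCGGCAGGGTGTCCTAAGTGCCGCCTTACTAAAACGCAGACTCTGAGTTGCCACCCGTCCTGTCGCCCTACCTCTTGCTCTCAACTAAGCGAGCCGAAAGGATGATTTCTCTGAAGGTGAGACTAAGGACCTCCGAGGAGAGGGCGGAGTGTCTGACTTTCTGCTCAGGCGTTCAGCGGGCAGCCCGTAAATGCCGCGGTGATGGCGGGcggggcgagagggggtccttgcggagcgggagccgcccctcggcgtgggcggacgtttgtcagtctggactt
Its GC content was 60.7%, against a median of 52.7% for the windows of all genes. Although the subunits form one complex, the FPKM ratio of Hadha to Hadhb was 0.499, 0.532 and 0.563 among controls, against 0.567, 0.597 and 0.585 among knockouts. All knockouts stood above all controls, though knockout 1 was close to control 3. The exact two-sided permutation p was 0.1, the smallest possible, and 0.2 when adjusted over the 2 subunit ratios computed. The other ratio, Etfa to Etfb, was 0.837 ± 0.0948 in controls and 0.792 ± 0.0703 in knockouts (SD, n = 3 each; exact permutation p = 0.5).

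Echs1, the short-chain enoyl-CoA hydratase, had the largest negative fold change among mitochondrial members. It stood at 132, 128 and 96.2 CPM among controls, against 99.7, 72.8 and 121 CPM among knockouts. Knockout 2 was the lowest library, control 3 lay below knockouts 1 and 3, and the groups overlapped (log2 fold change -0.28, SE 0.20, adjusted p = 0.632; -0.41 without control 3). Its value rested on single libraries: the log2 fold change was -0.11 without knockout 2 and -0.46 without knockout 3. Hsd17b10 belongs to isoleucine breakdown and to the mitochondrial RNase P complex as well as to beta-oxidation. It stood at 48.5, 49 and 49.8 CPM among controls, against 45.4, 44.4 and 46.2 CPM among knockouts. All knockouts were below all controls (log2 fold change -0.12, SE 0.066, adjusted p = 0.549; exact permutation p = 0.1). Hadh, the short-chain hydroxyacyl-CoA dehydrogenase, was at a control mean of 179 ± 38.9 CPM and a knockout mean of 185 ± 28.7 CPM (0.045; -0.12 without control 3). Acaa2, the mitochondrial thiolase, was at a control mean of 132 ± 37.5 CPM and a knockout mean of 139 ± 23.8 CPM (0.081; -0.13 without control 3). Their differences were smaller than the spread within either group (SD, n = 3 each).

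Electrons from the dehydrogenases leave through Etfa and Etfb, the subunits of the electron transfer flavoprotein, and through Etfdh, which hands them to ubiquinone. Etfb stood at 153, 138 and 123 CPM among controls, against 145, 132 and 149 CPM among knockouts (log2 fold change 0.040, SE 0.10, adjusted p = 0.915; -0.037 without control 3). Etfa was at a control mean of 188 ± 35.4 CPM and a knockout mean of 182 ± 27 CPM (-0.041; -0.19 without control 3), and Etfdh at a control mean of 146 ± 28.7 CPM and a knockout mean of 166 ± 29.5 CPM (0.18; 0.029 without control 3; SD, n = 3 each). Fold changes of the 3 genes had both signs, and each gene overlapped between groups. For Etfb, 53% of the exonic length is also annotated to Gm45233 on the same strand in GENCODE M21, so its reads could be divided.

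Of the auxiliary enzymes listed here, all but Pecr prepare unsaturated fatty acids for the main cycle. Decr1, the mitochondrial dienoyl-CoA reductase, stood at 123, 113 and 86.4 CPM among controls, against 129, 106 and 121 CPM among knockouts (log2 fold change 0.14, SE 0.14, adjusted p = 0.73; 0.010 without control 3). Eci1, the mitochondrial enoyl-CoA isomerase, was at a control mean of 104 ± 11.2 CPM and a knockout mean of 109 ± 8.54 CPM (0.069; -0.018 without control 3). Eci2, an isomerase found in both organelles, stood at 57.4, 53.2 and 51.7 CPM among controls, against 60.4, 54.1 and 69.7 CPM among knockouts (log2 fold change 0.18, SE 0.11, adjusted p = 0.557). Knockouts 1 and 3 were above every control and knockout 2 was not, and the value was 0.081 without knockout 3. Ech1, a dienoyl-CoA isomerase also of both organelles, stood at 238, 218 and 164 CPM among controls, against 221, 190.2 and 218 CPM among knockouts (log2 fold change 0.021, SE 0.14, adjusted p = 0.972; -0.12 without control 3). Decr2 and Pecr, peroxisomal reductases, were at 2.99 and 16.5 CPM in controls, with log2 fold changes of 0.0023 (interval -0.61 to 0.62) and -0.10 (-0.36 to 0.16). Decr2 rested on single libraries, with a log2 fold change of -0.28 without knockout 3 and 0.19 without control 3.

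None of the tested peroxisomal members of the core cycle passed the test. Acaa1a, the peroxisomal thiolase (chr9:119341028-119350296), had the smallest p of all 36 members. It stood at 47.9, 43.3 and 47.3 CPM among controls, against 38.5, 40.8 and 40.7 CPM among knockouts, so every knockout was below every control. The log2 fold change was -0.21 (SE 0.075, adjusted p = 0.379), with an interval of -0.38 to -0.033 and an exact permutation p of 0.1. It stayed between -0.26 and -0.19 when single libraries were left out. Its paralog Acaa1b (chr9:119148043-119157093) was the 1 member not tested. Counts of Acaa1b were 0, 0 and 178 among controls, against 0, 26 and 7 among knockouts. Control 3 held most of them, and 3 libraries had none. The coding sequences of this pair have 1272 bases each and differ at 44 of them (96.5% identity), and 37.9% of the 50-base words of Acaa1a also occur in Acaa1b. How their reads were divided is therefore uncertain. A stretch of 100 coding bases (164 to 263, counted from the start codon, GENCODE M21) is shown for both, with the differing bases in capitals. It was taken because it holds 2 differences, the median over all such stretches.
Acaa1a: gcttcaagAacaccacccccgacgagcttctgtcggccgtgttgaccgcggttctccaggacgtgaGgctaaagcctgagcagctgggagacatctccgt
Acaa1b: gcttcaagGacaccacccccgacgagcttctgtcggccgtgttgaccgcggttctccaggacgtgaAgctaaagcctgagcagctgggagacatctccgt
In GENCODE M21, a further 6.57% of the exonic length of Acaa1a overlaps Myd88 on the opposite strand. The RefSeq spans of these 2 genes do not overlap, with Myd88 at chr9:119335934-119340018. Myd88 had a mean of 5.56 CPM over controls and of 6.74 CPM over knockouts.

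Acox3, an oxidase for branched chains, stood at 31.2, 30.5 and 29.5 CPM among controls, against 27, 26.3 and 30.2 CPM among knockouts (log2 fold change -0.13, SE 0.082, adjusted p = 0.601). Knockouts 1 and 2 were below every control and knockout 3 was not. Ehhadh and Hsd17b4 are the bifunctional enzymes that follow the oxidase. Ehhadh was scarce, at a control mean of 6.25 ± 1.23 CPM and a knockout mean of 6.76 ± 1.17 CPM (0.11; -0.024 without control 3), and Hsd17b4 was at a control mean of 58.4 ± 2.89 CPM and a knockout mean of 61.5 ± 5.83 CPM (0.074; SD, n = 3 each). Phyh, which starts the alpha-oxidation of phytanic acid, was at a control mean of 209.8 ± 44 CPM and a knockout mean of 217 ± 37.2 CPM (0.047; -0.12 without control 3), the most abundant peroxisomal member. Among membrane proteins, Abcd2, a transporter of very long-chain acyl-CoA, stood at 54.8, 53 and 54.7 CPM among controls, against 54.3, 68.8 and 60.7 CPM among knockouts (log2 fold change 0.18, SE 0.10, adjusted p = 0.54). Knockout 2 was the highest library and knockout 1 lay within the controls. The log2 fold change of Abcd2 was 0.085 without knockout 2 and 0.25 without knockout 1. Abcd3, a more abundant transporter of the same family, stood at 73.6, 75.1 and 63.4 CPM among controls, against 78.5, 72.9 and 77.8 CPM among knockouts (log2 fold change 0.11, SE 0.090, adjusted p = 0.673; 0.038 without control 3). Pex11a, which acts in peroxisome division, was at a control mean of 6.75 ± 0.544 CPM and a knockout mean of 6.66 ± 0.812 CPM (-0.018).

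Set against each other, mitochondrial and peroxisomal members had medians close to each other and to that of all genes. The 17 mitochondrial members had a median log2 fold change of 0.069 (12 positive, 5 negative) and the 10 tested peroxisomal members one of 0.025 (6 positive, 4 negative). The 3 of both organelles had 0.021 and the 5 synthetases 0.0032. The difference between the mitochondrial and peroxisomal medians was 0.044, and it ran from -0.068 (without control 3) to 0.16 (without control 2) when single libraries were left out. Without control 3 the mitochondrial median was -0.10, with 4 of 17 positive, and the peroxisomal median -0.035. The summed level of mitochondrial members was 3499.9, 3357 and 2378 CPM among controls, against 3446, 2754 and 3573 CPM among knockouts. That of the 11 peroxisomal members was 534, 531 and 445 CPM among controls, against 503, 477 and 568 CPM among knockouts. Their ratio was 6.08 ± 0.641 in controls and 6.31 ± 0.536 in knockouts (SD, n = 3 each), and the ranges overlapped.

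**Figure D3:**
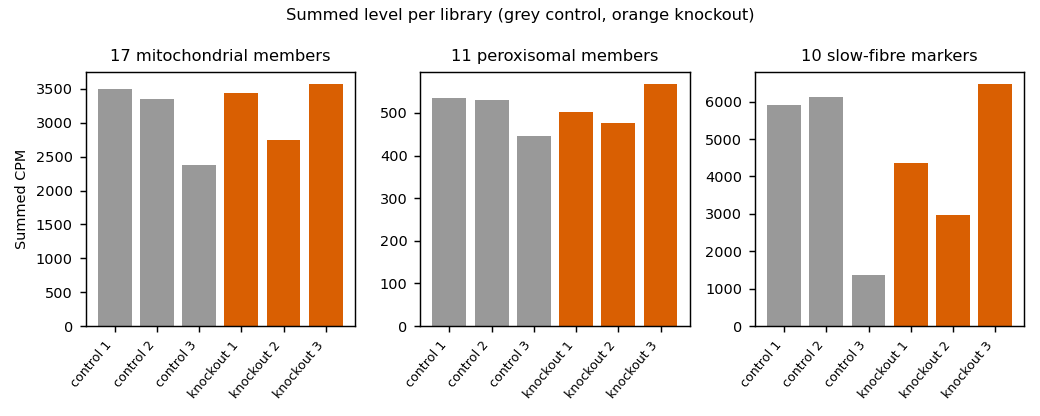
Summed CPM (y axis, from 0) of the 17 mitochondrial members, the 11 peroxisomal members and 10 slow-fibre markers (mostly Myh2 by sum) in each library, with controls in grey and knockouts in orange. Control 3 and knockout 2 are the lowest control and knockout in all panels, and control 3 is lowest of the 6.

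The classes also differed in how far they varied between libraries, which is given as a description. In control 3, mitochondrial members stood at a median of 73.3% of the mean of the other controls (range 54.1% to 112%), and peroxisomal members at 94.9% (67.6% to 141%), against 99.5% over all genes tested. A level under 80% was found for 11 of 17 mitochondrial and 2 of 10 peroxisomal members, and for 18% of all genes. The lowest were Acadl (54.1%), Acaa2 (58.7%) and Acadvl (64.9%). The peroxisomal members under 80% were Phyh (67.6%) and Ehhadh (73.2%). The 3 mitochondrial members that were not lower in control 3 were Acad10 (112%), Acad9 (107%) and Hsd17b10 (102%). Among the synthetases Acsl1 (67.1%) and Acsl3 (191%) lay on opposite sides.

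A smaller deviation of the same sign was seen in knockout 2. There mitochondrial members stood at a median of 79.3% of the mean of the other knockouts (66% to 99.9%) and peroxisomal members at 90.3%, against 99.5% over all genes. Abcd2 (119.7%) went the other way. Control 3 was the lowest of the 6 libraries for 20 of 35 tested members, 12 of them mitochondrial, and was the lowest for 21.7% of all genes. Slow-fibre markers were low in the same libraries, as their sums show, and their part in the result was not tested. Adipocyte markers were highest in knockout 2 for 5 of 6 genes, and most were high in control 3 too. Their median log2 deviation from the gene mean was 1.23 in knockout 2 and 0.87 in control 3. It lay between -1.04 and -0.17 in the remaining libraries. Fabp4, at 94.5% of the mean of the other controls, was not raised in control 3. The part of adipocytes in the result was not tested either. With the mean slow-fibre level of each library as a covariate, an alternative chosen after seeing the data, the mitochondrial median was -0.067, the peroxisomal median -0.028 and 12 of 35 members were positive, with 0 called.

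**Figure D4:**
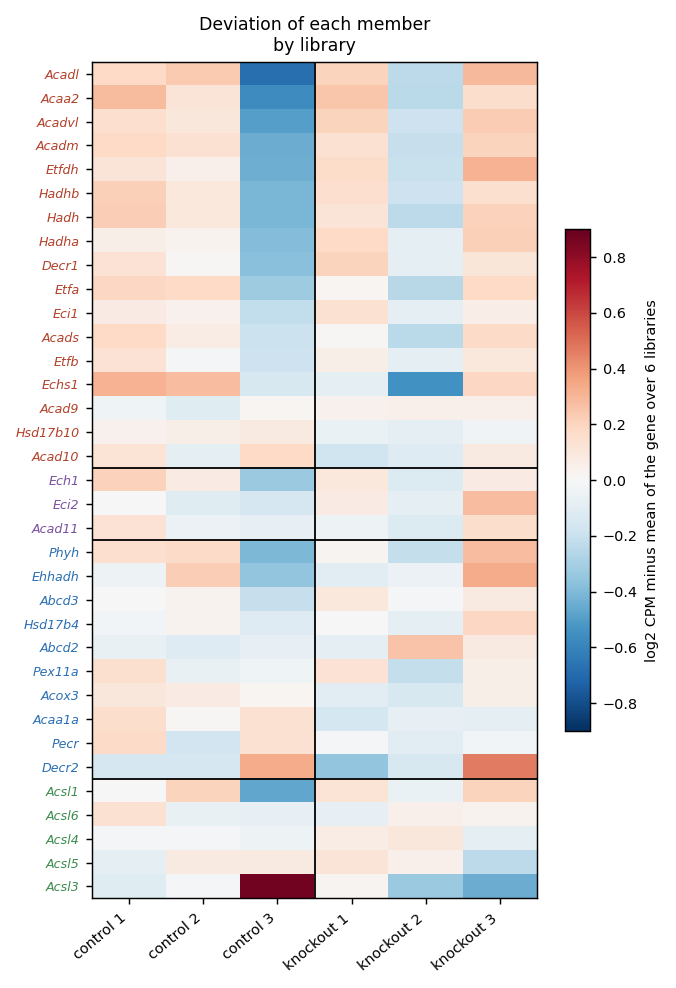
Log2 CPM of the 35 tested members (rows, coloured by class) in each library (columns), shown as the difference from the mean of the gene over the 6 libraries. Blue cells of control 3 fill most mitochondrial rows, with Acadl lowest, while Acsl3 is red in that library.

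Promoters were searched because many of these genes are known targets of nuclear receptors such as PPAR and estrogen-related receptors. RefSeq (GRCm38.p6) windows of 300 bases were found for 31 of 36 members. The receptor half-site AGGTCA, on either strand, occurred in those of 5 members, against 18.1% of all 27025 genes with a window. The direct repeat of it with any 1 base between, AGGTCANAGGTCA, occurred in 0 members and 0.0481% of genes. The longer TCAAGGTCA, which contains the half-site, occurred in 1 member, Acsl6, and 0.466% of genes. The matches are shown with the half-site, or its reverse complement TGACCT, in capitals.
Acadm (chr3:153944875-153944893, minus strand): gTGACCTtcgggctccggt
Acadvl (chr11:70015498-70015527, minus strand): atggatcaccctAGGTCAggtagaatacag
Echs1 (chr7:140116487-140116516, minus strand): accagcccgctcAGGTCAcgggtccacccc
Phyh (chr2:4919020-4919045, plus strand): gtaagttaagtgTGACCTgggcgcag
Acsl6 (chr11:54303623-54303652, plus strand): tgagtcttcccgTGACCTtgtgtggcctcc
Acsl6 (chr11:54303645-54303674, plus strand): tggcctccaaccTGACCTtgagcattctta
These are letters in a window and were not tested as binding sites. The 5 genes had log2 fold changes from -0.28 (Echs1) to 0.14 (Acadvl).

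Genes that feed or surround the pathway were taken from lists of carnitine transfer and odd-chain breakdown, other peroxisomal enzymes, and peroxins, which build the organelle. In the first list, 1 of 9 genes passed, against 0.0567% of all genes tested. The list was chosen with earlier results of these data known, and the difference in share was not tested. The gene was Cpt1a, an isoform of the enzyme that makes acylcarnitines. Cpt1a rose, with a control mean of 11.9 ± 0.919 CPM and a knockout mean of 21 ± 0.178 CPM (log2 fold change 0.82, edgeR adjusted p = 0.0421). The fold change kept its sign under every alternative, from 0.59 to 0.87, but the call did not hold under all of them. The edgeR adjusted p of Cpt1a was 0.271, 0.129 and 0.0961 without controls 1, 2 and 3, and 0.226, 0.266 and 0.0267 without knockouts 1, 2 and 3. It was 0.0526 with limma-voom and 0.179 with limma on log2 FPKM plus 1. Among the 10 alternatives that kept all libraries, Cpt1a passed the threshold of 0.05 in at least 1. With a replicate block in the edgeR fit no gene at all was called. Cpt1b, the muscle isoform, was far more abundant and did not pass. It was at a control mean of 368 ± 48.8 CPM and a knockout mean of 377 ± 37.2 CPM (log2 fold change 0.037, SE 0.12, edgeR adjusted p = 0.934). The median of the list was 0.037. Of 15 tested genes among the other peroxisomal enzymes 0 passed (0 at an unadjusted p under 0.05, against 11.6% of all genes). Their median was -0.031. Hacl1, a lyase of alpha-oxidation, was at -0.15, and Pxmp2, a peroxisomal membrane channel, at -0.18. Of 15 peroxins 0 passed, with a median of -0.037. At an unadjusted p under 0.05, 1 peroxin was lower, against 5.07% lower over all genes. That gene was Pex26, which anchors the import motor at the membrane, at 5.66, 6.24 and 6.63 CPM among controls, against 4.23, 5.31 and 3.74 CPM among knockouts (log2 fold change -0.48, SE 0.16, adjusted p = 0.363). Pex7, the receptor that imports Phyh and the peroxisomal thiolase, stood at 26.6, 26.2 and 28.9 CPM among controls, against 24.5, 26 and 23 CPM among knockouts (log2 fold change -0.15, SE 0.084, adjusted p = 0.538). Groups did not overlap for 3 of 15 peroxins, all with knockouts lower, against 8.87% lower and 8.38% higher over all genes. The difference in share was not tested. Beside Pex26 and Pex7 the third was Pex6, at 34.2, 31.5 and 30.8 CPM among controls, against 28.5, 29.4 and 30.5 CPM among knockouts (log2 fold change -0.13, SE 0.078, adjusted p = 0.576).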

How the data were processed

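The deposited read counts of 6 libraries are whole numbers per gene, not normalized, per the file headers. FPKM and TPM values, per the file headers, come from the authors; TPM was not used. Per the labels' protocols, libraries came from total RNA with a stranded kit. The submitters' processing notes name mm10, StringTie 1.3.4d, Bowtie2 2.3.4.1, FastQC 0.11.7 and bcl2fastq 2.20.0 without roles. How strand was used in counting is not stated in the sources.

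Counts were tested with edgeR 4.0.16 in R 4.3.3: filterByExpr (minimum count 10; 14109 genes kept, 10423 left out), TMM, the quasi-likelihood test, and Benjamini-Hochberg adjustment over all genes with a threshold of 0.05. The SE is the fold change over the root of F, and 95% intervals use the total degrees of freedom. A prior count of 2 entered log2 CPM. Scripts were tested on simulated data. No label says that samples of a group are separate mice, so p covers the spread of these samples only. The upper limit for a count of 0 is 3 counts and covers counting error alone. Same-numbered libraries did not deviate together (r = -0.0082, -0.19 and -0.10) and were not paired.

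The members and lists were chosen with earlier results of these data known. Values in every library are given for the 12 members with the smallest p and the 6 with the highest control FPKM; Acsl1 and Acaa1b were added after their values were seen. Of other lists, genes past the threshold are named, or else the 2 with the smallest p. Cpt1b and Pex6 were added to these after their values were seen. Markers covered muscle fibres, slow fibres, white and brown adipocytes, macrophages, fibroblasts and endothelium; summed muscle fibre markers stood at 137420.0 to 171803 CPM among controls, against 159153 to 188838 CPM among knockouts, by library. Coordinates and promoters are RefSeq GRCm38.p6, and coding sequences and exon overlaps GENCODE M21, aligned with Biopython 1.88. Alternatives were DESeq2 1.42.0 (size factors, Wald test), upper-quartile scaling, no filter, a filter of 1 CPM, limma 3.58.1 (voom; log2 FPKM with pseudocounts of 1 and 0.1), a replicate block, leaving out each library, and, added after seeing the data, a slow-fibre covariate.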

Additional observations from a re-analysis of the deposited data

How the results depend on the processing

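No member was called under any of the 16 alternative fits; the smallest adjusted p of a member ran from 0.253 (limma, log2 FPKM plus 1) to 0.763, and between 0 and 2 members had an unadjusted p under 0.05. Without single libraries the median log2 fold change ran from -0.10 (control 3) to 0.17 (control 1) for mitochondrial members, from -0.088 (knockout 3) to 0.083 (knockout 2) for peroxisomal members, and from -0.025 to 0.054 for synthetases; the difference between mitochondrial and peroxisomal medians ran from -0.068 to 0.16. The peroxisomal median was -0.064 without control 2. On the log2 FPKM scale the synthetase median was -0.061 with a pseudocount of 1 and -0.066 with 0.1. The medians over all genes moved the same way in these fits, to -0.047 and -0.070. The cause was not tested. With the replicate block 0 members were called, with medians of 0.072 (mitochondrial) and 0.018 (peroxisomal). Over all genes the block called 0, against 8 without it, 5 higher and 3 lower being the reported calls; DESeq2's Wald test gave 210 higher and 80 lower, the slow-fibre covariate, chosen after seeing the data, 12 and 8, and the fit without knockout 3 gave 120 and 21. Cpt1a had an adjusted p of 0.275 with the block and 0.188 on log2 FPKM plus 0.1. No library correlated best with the library of its own number in the other group. Counting Ech1, Eci2 and Acad11 as mitochondrial or as peroxisomal moved the difference between the medians from 0.044 to 0.037 or 0.048. With 3 libraries a group, the interval of a member as variable as Acadl reached past 1.5-fold.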
